A study of Homo sapiens with 18 samples.

Results

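Of the 18 libraries of the series, 12 were taken here to ask whether TGF-β1, added on top of an activated HER2 kinase, changed expression differently in JNK-knockout (JNKKO) than in parental (WT) mammary epithelial acini. They form 4 groups of 3 libraries, chosen by their titles: WT with the B/B homodimerizer, WT with the homodimerizer and TGF-β1, JNKKO with the homodimerizer, and JNKKO with the homodimerizer and TGF-β1. All 4 groups are MCF-10A.B2, a human mammary epithelial line that was not made from a tumour and that carries a chimeric receptor with the HER2 kinase, which the homodimerizer pairs. All grew as acini, hollow 3D spheres of cells, in growth factor reduced Matrigel for 21 days, and in all of them EGF was withdrawn on day 7, when the 14 days of treatment began. The ethanol control libraries of both genotypes, 6 in all, are not part of this comparison. The sources used here name neither the JNK genes that were edited nor the dose of TGF-β1, and do not say whether the JNKKO line is 1 clone.

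TGF-β1 binds a pair of receptor kinases that phosphorylate SMAD2 and SMAD3, which enter the nucleus with SMAD4 and switch genes on or off together with other factors. JNK, a stress-activated kinase, phosphorylates JUN and other members of the AP-1 family, transcription factors that bind near SMADs at many TGF-β target genes. In mammary epithelium TGF-β is known for slowing the cell cycle, raising matrix and protease inhibitor genes and loosening the epithelial state.

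The interaction is the log2 response to TGF-β1 in JNKKO minus the log2 response in WT. It equals the gap between genotypes (JNKKO minus WT) with TGF-β1, called the end gap below, minus the gap with homodimerizer alone, called the starting gap. A positive interaction, called higher, means that the response was more upward, or less downward, in JNKKO. Every adjusted p below is from edgeR's quasi-likelihood test with Benjamini-Hochberg adjustment over 16911 genes, errors of log2 values are standard errors, and levels are CPM (counts scaled to equal library size) in single libraries. No label states that the 3 libraries of a group were grown as separate cultures. The p-values therefore rest on the spread among these libraries, and that spread may be technical.

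Library totals lay between 24243537 and 34499651 expected counts. The first principal component of the 12 libraries (68.1% of the variance) parted the libraries with TGF-β1 from those without, and the second (21.5%) parted the genotypes. One library, WT with homodimerizer and TGF-β1 replicate 3, carries a genotype tag that says knockout although its title says WT. PCSK1N, which separated the genotypes, stood at 17.7 CPM in that library, at 11.1 to 17.7 CPM over the 6 WT libraries and at no more than 0.07 CPM in any of the 6 JNKKO libraries. Replicate 1 of the same group stood apart from its fellows, with a chi-square per gene of 9.53 and 12.1 against them, whereas replicates 2 and 3 were at 3.39. To a smaller extent, so did replicate 2 of JNKKO with homodimerizer, at 6.57 and 6.4, whereas replicates 1 and 3 there were at 2.28. Epithelial markers were present throughout, with KRT5 at 3120 to 7850 CPM and CDH3 at 291 to 515 CPM, and EPCAM was low at 2.19 to 10.1 CPM. Of the fibroblast markers, PDGFRA, THY1, LUM and COL3A1 did not exceed 0.396 CPM in any library, while DCN was at 16.9 to 121 CPM and DPT reached 7.88 CPM. Of the immune and endothelial markers, CDH5, CD3D and VWF did not exceed 0.168 CPM, while CSF1R was at 9.45 to 63.0 CPM, PECAM1 reached 8.27 CPM and CD14 reached 3.44 CPM. These are only some members of the 2 lists. All 15 fibroblast markers summed to 455 to 528 CPM in WT with TGF-β1. All 19 immune and endothelial markers summed to 102 to 122 CPM in JNKKO with homodimerizer. In both cases members not named here held most of the sum.

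The JNK genes themselves stayed detectable at the RNA level in JNKKO. MAPK9, which encodes JNK2, was at 59.3 ± 2.11 CPM (SD, n = 3) in WT and 43.8 ± 0.995 CPM in JNKKO with homodimerizer, and at 66.2 ± 1.93 and 52.4 ± 1.44 CPM with TGF-β1. MAPK8, which encodes JNK1, lay between 26.6 and 33.2 CPM in the means of the 4 groups. The interaction of MAPK9 was 0.10 ± 0.06 (edgeR adjusted p = 0.222) and that of MAPK8 was -0.30 ± 0.08 (edgeR adjusted p = 0.00308), and the second was lost on the TPM scale. Read counts over a gene do not show whether its edited transcript makes a protein.

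Expression changed with TGF-β1 for many genes in both genotypes, and the size of the change often differed between them. In WT, 33.4% of all genes tested rose and 31.8% fell, 29.7% by at least 1.5-fold in either direction. In JNKKO, 30.5% rose and 30.3% fell, 25.7% by at least 1.5-fold. The interaction passed the test for 5570 of the 16911 genes (32.9%), 2391 higher (14.1%) and 3179 lower (18.8%), with a median of -0.024 over all genes tested. The split was nearer even without WT replicate 3 with TGF-β1 (2431 and 2636) or replicate 2 (2504 and 2721). It was 2655 and 2868 without mitochondrially encoded genes, but 2273 and 3044 without WT replicate 1 with TGF-β1. At least 2-fold interactions were found for 940 genes (5.56%), 574 of them higher (3.39%) and 366 lower (2.16%). The median level of the 940 in the highest of the 4 groups was 4.49 CPM, against 19.1 CPM over all genes tested. The 2 responses, which share no library, ran together across the 16911 genes (Pearson 0.744, Spearman 0.707), a description only, since genes are not replicates and both responses depend on expression level and depth. On the log2(TPM + 1) scale with limma, 63.0% of 5290 called genes were higher, against 42.9% in the count test, and the median response moved to 0.105 in WT and 0.161 in JNKKO. Directions of gene groups that turn with this scaling are named where they occur. In bulk RNA, fewer cells of a type and less RNA per cell cannot be told apart.

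**Figure D1:**
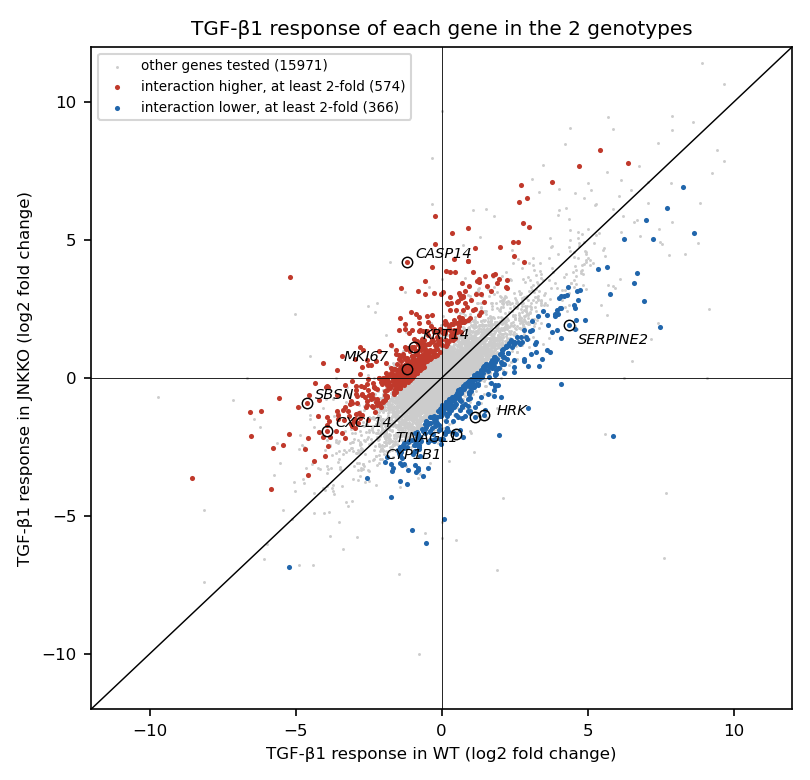
Each point is 1 gene, with its log2 response to TGF-β1 in WT on the x axis and in JNKKO on the y axis; coloured points are the 574 higher and 366 lower genes with an interaction of at least 2-fold that passed the test, the diagonal marks equal responses and rings mark named genes. CASP14, SBSN and KRT14 lie above the diagonal, and SERPINE2, HRK and CYP1B1 lie below it.

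Many large responses had the same direction in both genotypes, and some of them also had nearly the same size. Both responses were at least 2-fold in the same direction for 1543 genes, 888 rising and 655 falling. Of these the interaction was called for 474 and was at least 2-fold for 180, and for 230 (142 rises and 88 falls) the 95% interval of the interaction lay within 0.5 of 0 on the log2 scale. SPOCK1, a secreted proteoglycan gene, was at 16.7, 17.2 and 16.1 CPM in WT with homodimerizer and at 150.3, 171.6 and 157.9 CPM with TGF-β1. In JNKKO it was at 12.3, 12.8 and 12.9 CPM and then at 135.8, 137.4 and 149.1 CPM. Both genotypes rose about equally far, and the interaction was 0.21 with a 95% interval of 0.01 to 0.41 (edgeR adjusted p = 0.105). The transporter gene SLC46A3 rose by 4.69 in WT and 4.77 in JNKKO (log2), with an interval of -0.18 to 0.33 for the interaction. The antiviral synthetase gene OAS1 fell in both, from 29.8, 30.4 and 30.4 to 7.10, 5.2 and 5.03 CPM in WT and from 27.0, 25.9 and 26.4 to 5.01, 5.13 and 5.72 CPM in JNKKO, with an interval of -0.19 to 0.31. KIF3C, a kinesin motor gene, and CYP4F12, a cytochrome P450 gene, had interactions with 95% intervals of -0.25 to 0.25 and -0.36 to 0.34, the first a rise and the second a fall in both genotypes. JUN itself, the JNK substrate, rose by 1.99 in WT and 2.06 in JNKKO, with an interaction of 0.07 ± 0.09 (edgeR adjusted p = 0.592). Fibronectin, FN1, rose in both, from 7.04, 6.42 and 5.53 to 3670, 4894 and 4471 CPM in WT and from 52.7, 38.9 and 56.0 to 15720, 14490 and 15630 CPM in JNKKO. Its gap was present before and after TGF-β1, and its interaction of -1.15 ± 0.57 did not pass the test (edgeR adjusted p = 0.149).

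The 940 genes with an interaction of at least 2-fold were then described by where the genotypes differed. A gap was taken as present where it passed the test and was at least 1.5-fold, which at the start held for 5.89% of all genes tested with JNKKO higher and 5.10% with JNKKO lower, and at the end for 9.38% and 8.72%. For 521 of the 940 (55.4%) only the end gap was present, and for 139 (14.8%) only the starting gap. In 93 the gap was present at both points with opposite signs (crossing), in 109 it had the same sign and was larger at the end (widening), and in 35 it was smaller at the end (narrowing). The last 43 had neither gap. The starting gap made up a median of 29.9% of the sum of both gaps, against 42.8% over all genes tested. By responses, 354 genes responded at least 1.5-fold in WT only, 249 in JNKKO only, 258 in both in the same direction by different amounts and 66 in opposite directions.

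**Figure D2:**
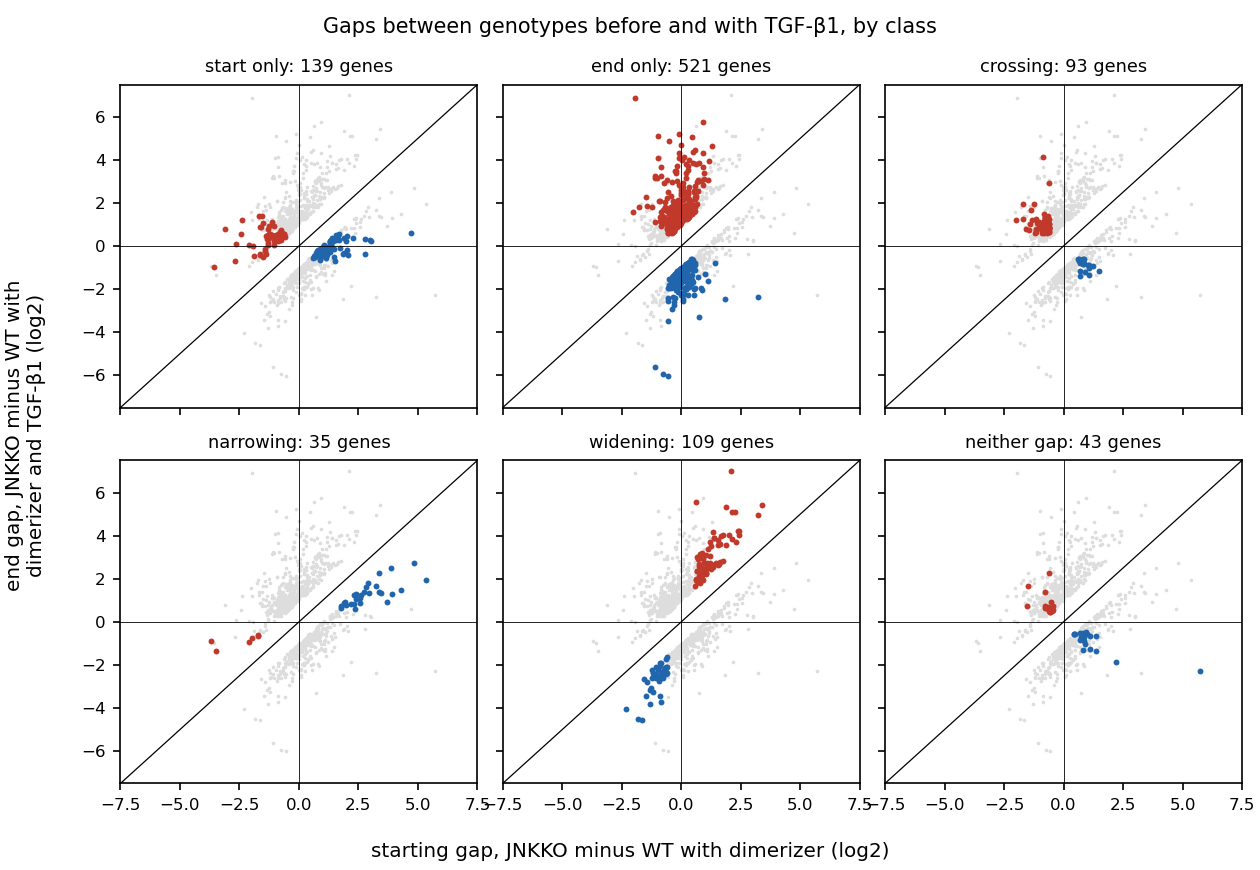
Each panel shows 1 class in colour (red for a higher and blue for a lower interaction) over all 940 genes in grey, with the starting gap between genotypes (log2 JNKKO minus WT, homodimerizer alone) on the x axis and the end gap (with TGF-β1) on the y axis. The largest class, 521 genes with an end gap only, spreads along the vertical axis at both signs.

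Where only the starting level differed, the genotypes stood apart with homodimerizer alone and close together with TGF-β1. SERPINE2, the gene of the serine protease inhibitor protease nexin-1, showed this plainly. It went from 9.30, 9.39 and 8.62 to 166.5, 207.3 and 192.6 CPM in WT and from 60.3, 59.7 and 66.3 to 230.4, 223.4 and 248.5 CPM in JNKKO, where the end groups lay much closer together than the starting groups. The starting gap was 2.77 and the end gap 0.31, so the response was 4.37 in WT and 1.91 in JNKKO, an interaction of -2.46 ± 0.14 (edgeR adjusted p = 3.61e-09). The transcriptional coregulator gene MN1 went from 2.42, 1.78 and 2.58 to 48.9, 58.3 and 59.4 CPM in WT and from 10.1, 9.55 and 8.88 to 42.9, 39.8 and 40.6 CPM in JNKKO. Its interaction was -2.50 ± 0.20, with WT ahead at the end. ITGA10, an integrin chain that binds collagen, was at 66.1, 68.7 and 66.3 CPM in WT with homodimerizer and at 132.2, 157.1 and 162.6 CPM with TGF-β1. In JNKKO it was at 173.7, 165.1 and 188.8 CPM and at 172.1, 164.5 and 174.4 CPM. It rose in WT by 1.17, its response in JNKKO was -0.05 and did not pass the test, and the interaction was -1.21 ± 0.10 (edgeR adjusted p = 4.07e-08). KRT6A, a keratin of activated keratinocytes, rose in WT from 2452 ± 85.6 to 5306 ± 75.3 CPM (SD, n = 3) and was at 4004 ± 107 and 3910 ± 91.0 CPM in JNKKO, an interaction of -1.15 ± 0.05.

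The metalloproteinase inhibitor TIMP3 (-1.01), the AP-1 partner MAFF (-1.08), the growth factor receptor CSF1R (-1.08) and the integrin chain ITGB2 (-2.23) were also higher in JNKKO at the start and had no end gap of 1.5-fold. The 70 genes of this kind with a lower interaction had median responses of 1.84 in WT and 0.52 in JNKKO. The 69 genes with a starting gap only and a higher interaction had more mixed shapes. CXCL14, an epithelial chemokine gene, was at 5.81, 6.07 and 6.18 CPM in WT with homodimerizer and at 0.726, 1.21 and 0.837 CPM in JNKKO. TGF-β1 brought levels of 0.393, 0.464 and 0.339 CPM in WT and at 0.210, 0.268 and 0.252 CPM in JNKKO. Levels were low with TGF-β1 in both genotypes, and still lower in all 3 JNKKO libraries. The starting gap was -2.68 and the interaction 1.98 ± 0.44 (edgeR adjusted p = 0.000768). The cytokine gene IL32 had a starting gap of -1.25 and rose in both genotypes, by 1.02 in WT and 2.83 in JNKKO, an interaction of 1.81 ± 0.17. JNKKO was thus lower at the start and higher at the end.

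**Figure D3:**
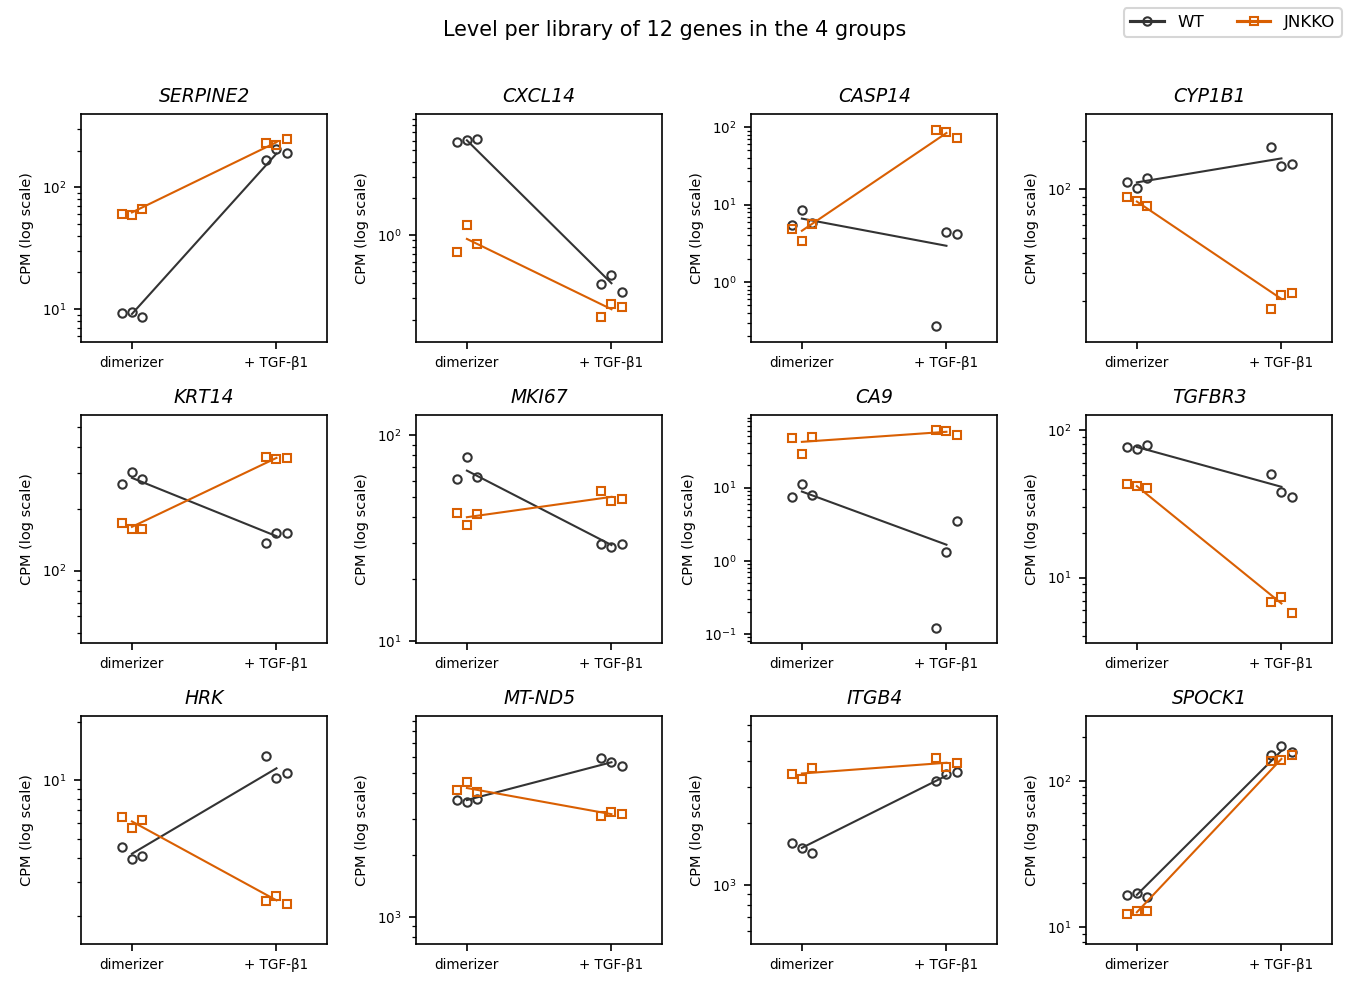
Levels of 12 genes in each of the 12 libraries (CPM, log axis) with homodimerizer alone and with TGF-β1, WT as dark circles and JNKKO as orange squares, with lines through the group means. SERPINE2 shows a starting gap that was not present at the end, CASP14 and CYP1B1 an end gap that was not present at the start, KRT14 crossing lines, and SPOCK1 nearly parallel lines.

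Where only the end level differed, the genotypes started close together and TGF-β1 set them apart. CASP14, the caspase of terminal epidermal differentiation, had the largest positive interaction of the genes that reached 5 CPM in a group and met the other conditions for naming. It was at 5.51, 8.46 and 5.82 CPM in WT with homodimerizer and at 0.272, 4.41 and 4.13 CPM with TGF-β1. In JNKKO it was at 4.83, 3.38 and 5.57 CPM and then at 91.6, 86.7 and 73.2 CPM. All 3 JNKKO libraries with TGF-β1 lay far above the other 9, and WT replicate 1 with TGF-β1 lay far below its fellows. The response was 4.20 in JNKKO and -1.19 in WT (edgeR adjusted p = 0.0616), an interaction of 5.39 ± 0.65 (edgeR adjusted p = 3.17e-05), which was 4.83 without that replicate and 5.77 without replicate 3.

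SBSN, which encodes suprabasin of the stratified epidermis, reached the same sort of end gap from another side. It was at 12.9, 12 and 12.9 CPM in WT and at 12.3, 8.91 and 11.5 CPM in JNKKO with homodimerizer. In the libraries with TGF-β1 it was at 0.514, 0.564 and 0.463 CPM in WT and at 6.34, 5.60 and 5.18 CPM in JNKKO. It fell much further in WT, by 4.61 against 0.92, an interaction of 3.69 ± 0.68 (edgeR adjusted p = 0.001). CAMK2B, a calcium-dependent kinase gene, fell from 34.2, 43.8 and 35.4 to 0.181, 0.365 and 0.679 CPM in WT and from 36.4, 31.2 and 38.5 to 11.5, 7.78 and 5.57 CPM in JNKKO. The interaction was 4.43 ± 0.46, and 5.05 without WT replicate 3.

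The start regions of a few of these genes are shown because AP-1, whose subunits JNK phosphorylates, binds the 7-base site TGANTCA, which reads alike on both strands. RefSeq start windows (GRCh38.p14, 250 bases before to 50 after the start) were at hand for 51 of the 75 named genes with an interaction of at least 2-fold, and 8 of the 51 held the site, as did 7.71% of all 35116 windows. Some genes have several windows, 80 in all for the 51, so a share of genes and a share of windows are not on the same footing. The 8 were CA9, CASP14, CSF1R, CXCL14, FLG, IL1RN, INSC and SBSN. Below, 5′ to 3′ on the strand of the gene, capitals mark the site.
CASP14, chr19:15049230-15049529, plus strand: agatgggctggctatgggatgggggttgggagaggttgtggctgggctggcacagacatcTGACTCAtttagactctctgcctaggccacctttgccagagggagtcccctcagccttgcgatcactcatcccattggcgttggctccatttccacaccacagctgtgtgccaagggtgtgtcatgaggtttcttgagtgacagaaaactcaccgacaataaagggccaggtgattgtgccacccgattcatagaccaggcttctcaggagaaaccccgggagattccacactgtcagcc
SBSN, chr19:35528262-35528561, minus strand: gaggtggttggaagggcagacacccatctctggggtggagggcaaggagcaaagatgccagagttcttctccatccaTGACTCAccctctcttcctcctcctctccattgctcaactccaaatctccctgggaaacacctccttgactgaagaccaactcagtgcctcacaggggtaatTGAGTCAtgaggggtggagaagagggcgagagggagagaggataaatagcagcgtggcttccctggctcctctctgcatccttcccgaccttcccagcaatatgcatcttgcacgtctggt
CXCL14, chr5:135578942-135579241, minus strand: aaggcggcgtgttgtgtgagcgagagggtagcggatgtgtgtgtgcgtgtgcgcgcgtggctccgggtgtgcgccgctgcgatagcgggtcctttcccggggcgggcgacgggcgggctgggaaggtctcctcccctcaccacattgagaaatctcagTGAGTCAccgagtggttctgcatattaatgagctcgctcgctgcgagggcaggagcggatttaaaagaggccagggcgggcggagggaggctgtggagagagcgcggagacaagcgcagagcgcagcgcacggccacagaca
CASP14 and CXCL14 hold 1 site each, and SBSN holds 2. The SMAD element CAGACA, searched on both strands, was found in 16.9% of all windows and for 14 of the 51 genes. The windows with the AP-1 site held 1 such element each in CA9, CASP14, CSF1R, CXCL14, INSC and SBSN. Those of FLG and IL1RN held 0. None of the AP-1 sites in the 8 genes overlapped a SMAD element. The 3 genes differ in shape, with a rise only in JNKKO for CASP14, a deeper fall in WT for SBSN and a starting gap for CXCL14. A match of letters says nothing of binding in these cells.

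Several secreted factors rose much further in JNKKO. FSTL1, a follistatin-like protein that binds ligands of the TGF-β family, went from 2.89, 2.77 and 2.73 to 9.61, 11.5 and 12.5 CPM in WT and from 1.88, 2.23 and 2.06 to 56.6, 53.4 and 55.9 CPM in JNKKO. The interaction was 2.73 ± 0.20 (edgeR adjusted p = 8.2e-11). WNT5A, a ligand of non-canonical Wnt signalling, went from 14.2, 13.7 and 12.9 to 24.7, 36.2 and 38.3 CPM in WT and from 8.88, 10.5 and 8.82 to 118.7, 107.8 and 112.7 CPM in JNKKO, an interaction of 2.30 ± 0.19. Both genes rose in WT as well, so the direction was shared and the amount was not. CXCL1, a chemokine for neutrophils, went from 3.22, 4.11 and 3.88 to 5.53, 5.07 and 8.05 CPM in WT and from 3.89, 5.30 and 4.44 to 34.0, 36.3 and 39.1 CPM in JNKKO, an interaction of 2.26 ± 0.20. The matricellular protein gene SPARC had 2.22 ± 0.16 and the pentraxin gene PTX3 3.34 ± 0.45. Over the 331 genes with an end gap only and a higher interaction, the median response was -1.01 in WT and 0.50 in JNKKO, and 140 of them responded in WT only.

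A smaller set ended lower in JNKKO. CYP1B1, an oxidase of estrogens and a target of the aryl hydrocarbon receptor, was at 112.1, 102.5 and 117.6 CPM in WT and at 89.1, 84.7 and 78.3 CPM in JNKKO with homodimerizer. With TGF-β1 it was at 184.7, 140.8 and 143.6 CPM in WT and at 17.9, 21.8 and 22.4 CPM in JNKKO. It rose by 0.50 in WT and fell by 2.02 in JNKKO, an interaction of -2.52 ± 0.17 (edgeR adjusted p = 1.05e-07). HRK, a BH3-only gene that promotes cell death, went from 4.55, 3.94 and 4.07 to 13.3, 10.3 and 10.9 CPM in WT and from 6.45, 5.68 and 6.28 to 2.38, 2.55 and 2.30 CPM in JNKKO. JNKKO lay above WT in every library with homodimerizer alone and below WT in every library with TGF-β1. The interaction was -2.80 ± 0.16 (edgeR adjusted p = 2.04e-13). TINAGL1, a matrix glycoprotein gene, rose by 1.13 in WT and fell by 1.40 in JNKKO, an interaction of -2.53 ± 0.13. P4HA3, a subunit of collagen prolyl hydroxylase, rose in both, from 0.133, 0.175 and 0.112 to 12.1, 15.6 and 17.3 CPM in WT and from 0.342, 0.287 and 0.161 to 3.71, 3.99 and 3.27 CPM in JNKKO, an interaction of -2.89 ± 0.49. The basal keratin KRT17 rose in WT from 1967 ± 79.1 to 3970 ± 488 CPM (SD, n = 3) and fell in JNKKO from 1453 ± 88.7 to 1245 ± 44.5 CPM, an interaction of -1.24 ± 0.11.

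In crossing genes the order of the genotypes was turned over by TGF-β1. KRT14, a keratin of basal mammary cells, was at 264.5, 303.8 and 280.3 CPM in WT and 171.1, 160.1 and 159.0 CPM in JNKKO with homodimerizer. With TGF-β1 it was at 136.4, 152.2 and 153.0 CPM in WT and at 356.5, 350.4 and 354.6 CPM in JNKKO. WT fell by 0.94 and JNKKO rose by 1.12, so the genotype that was lower at the start was higher at the end, an interaction of 2.06 ± 0.11 (edgeR adjusted p = 5.39e-09). The proliferation marker MKI67 was at 61.0, 78.2 and 62.8 CPM in WT with homodimerizer and at 29.5, 28.7 and 29.5 CPM with TGF-β1. In JNKKO it was at 41.9, 36.7 and 41.3 CPM and then at 53.5, 48.1 and 48.9 CPM, where the change of 0.33 did not pass the test (edgeR adjusted p = 0.0705). WT fell by 1.20, below JNKKO, and the interaction was 1.54 ± 0.21 (edgeR adjusted p = 8.63e-05).

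GFPT2, of the hexosamine pathway, went from 7.44, 6.94 and 8.51 to 6.62, 9.98 and 11.7 CPM in WT and from 5.00, 6.00 and 4.06 to 73.0, 70.0 and 73.8 CPM in JNKKO, an interaction of 3.55 ± 0.26 (edgeR adjusted p = 1.23e-07). The protease inhibitor gene A2ML1 was at 10.3, 9.57 and 8.79 CPM in WT and 5.47, 4.66 and 5.47 CPM in JNKKO with homodimerizer, and at 0.0907, 0.199 and 0.0926 CPM in WT and 2.63, 1.94 and 2.16 CPM in JNKKO with TGF-β1. It fell in both genotypes, by 6.20 and 1.21, and the interaction was 4.99 ± 0.89. The apolipoprotein gene APOE fell by 2.55 in WT, was at 9.83 ± 1.34 and 8.35 ± 0.62 CPM in JNKKO (SD, n = 3) and had an interaction of 2.31 ± 0.22. Only 20 of the 93 crossing genes had a lower interaction. Among them the atypical MAP kinase gene MAPK4 had -2.14 ± 0.24 and the surface antigen gene PSCA had -2.07 ± 0.25.

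Narrowing genes were mostly those already high in JNKKO. AOX1, an aldehyde oxidase gene, was at 1.73, 1.63 and 1.54 CPM in WT and at 23.1, 17.1 and 24.5 CPM in JNKKO with homodimerizer. Under TGF-β1 the values were 34.9, 40.6 and 39.9 CPM in WT and 73.9, 71.7 and 75.4 CPM in JNKKO. The gap shrank from 3.72 to 0.94 and the groups did not overlap at either point, an interaction of -2.78 ± 0.17 (edgeR adjusted p = 7.89e-11). INSC, of spindle orientation, narrowed from 3.90 to 1.31, and the Wnt ligand gene WNT7A from 2.20 to 0.84. ALDH1A2, an enzyme of retinoic acid synthesis, narrowed through a fall in JNKKO. It was at 6.54, 5.08 and 5.79 CPM there with homodimerizer and at 0.595, 0.503 and 0.683 CPM with TGF-β1, while WT stayed at 0.166 to 0.398 CPM in all 6 libraries, an interaction of -2.81 ± 0.61.

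In widening genes a gap grew. CA9, the carbonic anhydrase induced by hypoxia, was at 7.47, 11.1 and 7.89 CPM in WT and at 47.6, 28.96 and 49.7 CPM in JNKKO with homodimerizer. With TGF-β1 it was at 0.121, 1.33 and 3.52 CPM in WT and at 60.6, 59.7 and 52.9 CPM in JNKKO. The 3 WT libraries with TGF-β1 were far from each other, and the interaction of 2.88 ± 0.71 (edgeR adjusted p = 0.00711) was 4.14 without replicate 3 and 2.31 without replicate 1. LPAR3, a lysophosphatidic acid receptor gene, fell from 5.38, 4.55 and 4.27 to 0.151, 0.663 and 0.370 CPM in WT and from 19.2, 20.3 and 22.2 to 12.6, 14.6 and 13.3 CPM in JNKKO. The interaction was 2.98 ± 0.25, and 3.58 without WT replicate 2 with TGF-β1. DUSP4, a phosphatase that dampens MAP kinases, fell in WT from 148.5, 153.8 and 147.0 to 83.7, 96.7 and 107.0 CPM and rose in JNKKO from 277.5, 263.1 and 290.0 to 443.4, 458.3 and 416.9 CPM. Its interaction was 1.31 ± 0.11 (edgeR adjusted p = 2.58e-07). PHGDH, of serine synthesis, fell in both genotypes, and its gap grew from 1.26 to 3.50.

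TGFBR3, which encodes the co-receptor betaglycan that presents TGF-β to its receptors, widened in the other direction. It was at 77.5, 74.3 and 78.8 CPM in WT and at 43.0, 41.9 and 40.2 CPM in JNKKO with homodimerizer. With TGF-β1 it was at 50.5, 38.0 and 35.3 CPM in WT and at 6.83, 7.45 and 5.79 CPM in JNKKO. It fell in both, by 0.89 and 2.64, an interaction of -1.74 ± 0.16 (edgeR adjusted p = 9.5e-07). The microtubule-binding MAP2 (-1.83 ± 0.25) and the lipid kinase PIK3C2B (-1.85 ± 0.15) had the same class. MAP2 rose in both genotypes and PIK3C2B fell in both.

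The ethanol controls, which are in the fit but not in the interaction contrast, gave the gap between genotypes without homodimerizer, a comparison added after the data were seen. A gap of at least 1.5-fold was present there for 15.2% of all genes tested, with the sign of the starting gap in 8.85% and with the opposite sign in 6.37%. Over the 940 genes these shares were 24.5% and 27.9%. They were 65.1% and 5.5% for the widening genes, 34.3% and 11.4% for the narrowing genes, 21.1% and 30.1% for genes with an end gap only, 18% and 29.5% for genes with a starting gap only, and 9.68% and 45.2% for the crossing genes. Each of these classes except that with an end gap only asks for a starting gap, which most genes tested lacked. Their shares are therefore not on the same footing as those over all genes.

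Responses of at least 1.5-fold in opposite directions were rare, 66 of the 940 genes. In 48 of them WT fell and JNKKO rose, as for KRT14 and DUSP4, and in 18 WT rose and JNKKO fell, as for HRK, TINAGL1 and WISP2, a CCN family gene that rose by 1.58 in WT and fell by 0.59 in JNKKO. More often 1 genotype responded and the other had a smaller change.

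Genes of DNA replication and mitosis moved together. Of 35 tested, 33 had a higher interaction and 0 a lower one, 24 at least 2-fold, with a median of 1.33 against -0.024 over all genes. Over all genes tested, 14.1% were higher (3.39% at least 2-fold) and 18.8% lower. Of the 33, 32 fell in WT, whereas in JNKKO 16 rose and 4 fell, with median responses of -1.0 and 0.34 over the list. At the start 26 of the 33 were lower in JNKKO (18.5% of all genes tested were) and at the end 30 were higher (26.5% of all). TTK, a kinase of the spindle checkpoint, had 2.12 ± 0.20, cyclin B2 (CCNB2) 1.47 ± 0.14 and the spindle motor KIF11 1.16 ± 0.12. The replication helicase subunits MCM3 (0.11) and MCM7 (0.12), named after their values were seen, did not pass the test. The summed level of the list was 1040 to 1220 CPM in WT with homodimerizer, 603 to 637 with TGF-β1, and 732 to 864 and then 872 to 885 in JNKKO.

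Genes of cornification and squamous differentiation were divided. Of 26 tested, 15 were higher and 2 lower, beside 14.1% and 18.8% over all genes tested. Of the higher ones 13 were at least 2-fold, and the median was 1.68, or 0.85 on log2(TPM + 1). Of the 15, 14 fell in WT. S100A9, a calcium-binding alarmin, fell by 4.57 in WT and 2.18 in JNKKO, an interaction of 2.39 ± 0.19, and the kallikrein protease gene KLK10 had 4.62 ± 0.43 at low levels, with group means of 1.11 and 0.0628 CPM in WT and 1.53 and 2.26 CPM in JNKKO. The 2 lower members were FLG (-1.63), which was at -0.28 and lost its call in limma on filtered TPM, and KRT10 (-2.15), named after its values were seen. KRT10, a keratin of suprabasal cells, had group means of 981 and 1581 CPM in WT and 816 and 296 CPM in JNKKO, without and with TGF-β1. The summed level of the list, of which KRT10 was a large part, was 1580 to 1690 CPM in WT with homodimerizer and 1390 to 2200 CPM with TGF-β1, although 22 of the 26 members fell in WT. In JNKKO the sum was 1490 to 1730 CPM and then 551 to 620 CPM, and 14 of the 26 fell and 6 rose.

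All 13 mitochondrially encoded genes had a lower interaction, 6 of them at least 2-fold, with a median of -0.86. Over all genes tested, 18.8% were lower (2.16% at least 2-fold) and 14.1% higher. All 13 of these mitochondrial genes fell in JNKKO, while in WT 9 rose and 2 fell. MT-ND5, a subunit of complex I, was at 3715, 3629 and 3750 CPM in WT with homodimerizer and at 5902, 5642 and 5401 CPM with TGF-β1. In JNKKO it was at 4145, 4519 and 4033 CPM and then at 3083, 3234 and 3155 CPM, an interaction of -1.03 ± 0.05 (edgeR adjusted p = 7.7e-15). The share of counts from these genes was 5.24% to 5.56% in JNKKO with TGF-β1 and 8.61% to 9.88% in the other 3 groups, and the part of RNA quality in this was not tested. Nuclear genes of the respiratory chain did not follow, with 10 higher and 4 lower of 33, a split that was 18 and 1 on log2(TPM + 1).

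Genes of cell adhesion leaned lower, set against 18.8% lower and 14.1% higher over all genes tested. Of 19 genes of desmosomes, hemidesmosomes and laminin-332, 15 were lower and 0 higher. ITGB4, the integrin chain of hemidesmosomes, was at 1602, 1520 and 1427 CPM in WT and 3476, 3297 and 3695 CPM in JNKKO with homodimerizer, and at 3197, 3484 and 3538 CPM in WT and 4135, 3764 and 3907 CPM in JNKKO with TGF-β1. JNKKO was higher at both points, by less at the end, and the interaction was -0.99. Of the 15, 9 were lower in JNKKO at the end and 4 higher (26.4% and 26.5% of all genes tested). The summed level of the list rose in both genotypes. It was 16200 to 16700 and then 29600 to 31000 CPM in WT, and 22900 to 23500 and then 37800 to 40500 CPM in JNKKO. Epithelial junction and polarity genes had 17 lower and 4 higher of 29, with E-cadherin, CDH1, at -0.66, and integrin chains had 9 lower and 1 higher of 18. CDH2, N-cadherin, had 0.36 and did not pass the test (edgeR adjusted p = 0.0605).

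Along the TGF-β pathway itself, where counts of called members stand against 18.8% lower and 14.1% higher over all genes, the ligand and receptor genes had 9 lower and 1 higher of 21, and FSTL1 was the one that was higher. TGFBR1 had an interaction of -0.22, while TGFBR2 (0.06) and TGFB1 (-0.21) did not pass the test; these 3 were named after their values were seen. SMAD, feedback and target genes had 14 lower and 3 higher of 23, although 20 of the 23 rose in each genotype. Small differences were seen for PMEPA1, a feedback inhibitor that rose by 4.93 in WT and 4.56 in JNKKO, and SMAD7, the inhibitory SMAD, with -0.31. The split of this list was 6 higher and 9 lower on log2(TPM + 1). AP-1 genes had 9 lower and 2 higher of 18, YAP and TAZ targets 12 lower and 2 higher of 25, and guidance genes 20 lower and 5 higher of 38, beside the same shares over all genes.

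The next counts stand beside 14.1% higher and 18.8% lower over all genes tested. Hypoxia and glycolysis genes had 14 higher and 6 lower of 32, and 29 of the 32 were higher in JNKKO at the start (21.6% of all genes tested were) and 28 at the end (26.5%). Interleukins, chemokines and their partners had 10 higher and 5 lower of 30. IL1RN, the interleukin-1 receptor antagonist, fell by 2.31 in WT and 0.34 in JNKKO, an interaction of 1.97 ± 0.18. Collagens and other matrix genes were mixed, with 8 higher and 11 lower of 31, a split that turned to 10 and 9 without 1 JNKKO homodimerizer library and with a filter on TPM. Proteases had 8 higher and 12 lower of 32, which became 11 and 10 on log2(TPM + 1). Interferon genes had 4 higher and 6 lower of 26, which turned to 6 and 5 with the size factors of DESeq2 and to 5 and 1 on log2(TPM + 1). The 2 lists of other cell types gave 1 higher and 1 lower of 7 fibroblast markers and 1 higher and 2 lower of 10 immune and endothelial markers. In either direction, 38.5% of interferon genes, 28.6% of fibroblast markers and 30.0% of immune and endothelial markers were called. These shares were near the 32.9% over all genes tested. Summed fibroblast markers were 74.4 to 77.7 and 455 to 528 CPM in WT and 71.9 to 80.4 and 428 to 452 CPM in JNKKO, without and with TGF-β1. Summed immune and endothelial markers were 53.1 to 55.9 and 89.1 to 98 CPM in WT and 102 to 122 and 122 to 131 CPM in JNKKO, and the part of such cells in the interactions was not tested.

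**Figure D4:**
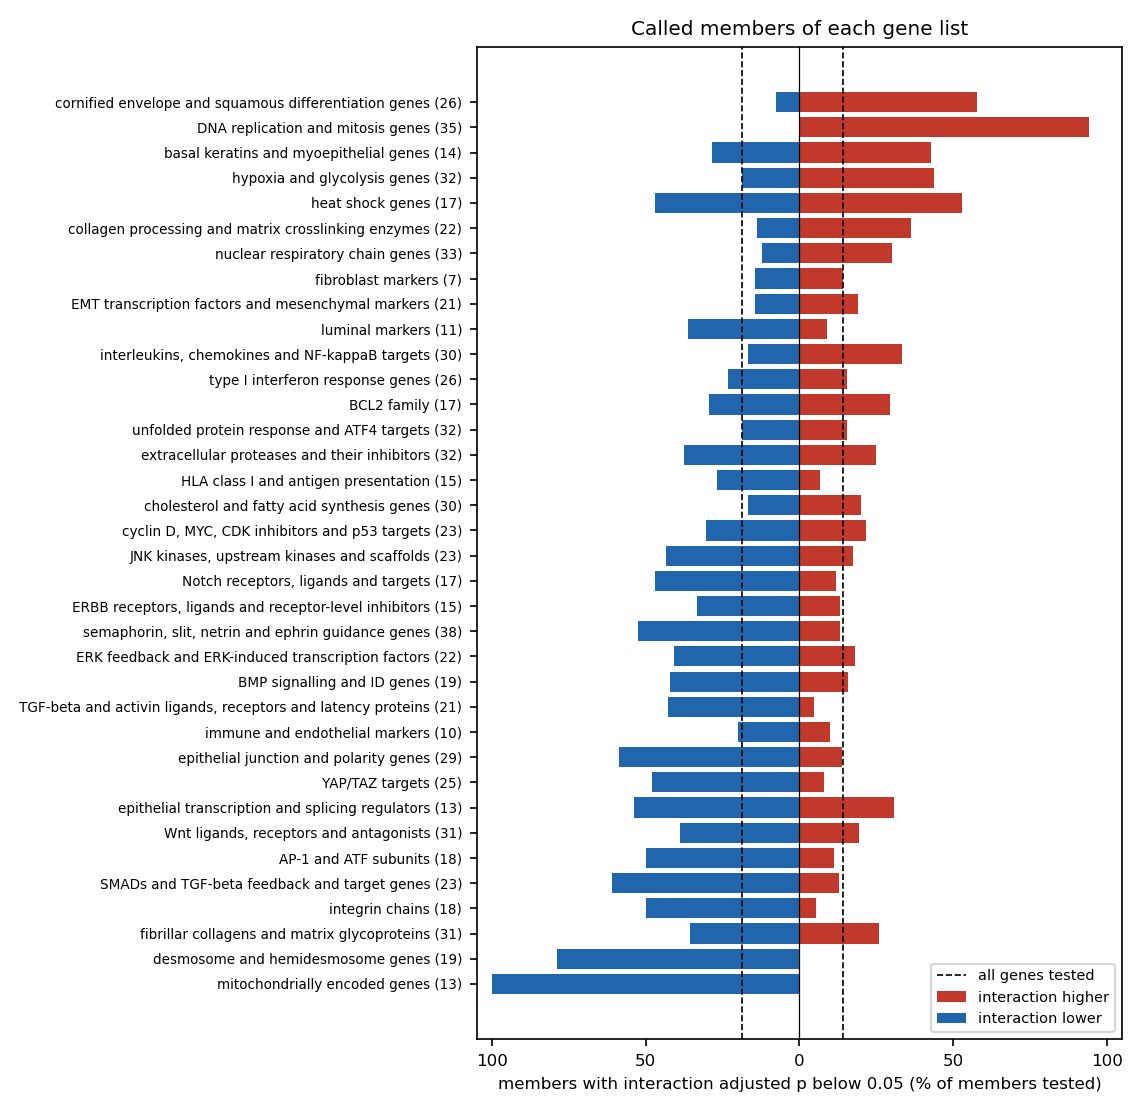
Bars give the percentage of tested members of each gene list with a higher (red) or lower (blue) interaction that passed the test, with the number tested in brackets, and dashed lines mark the shares over all genes, 14.1% and 18.8%. Replication and mitosis genes fill the higher side, with 33 of 35, and mitochondrially encoded genes the lower side, with 13 of 13.

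Without WT replicate 3 with TGF-β1, the library whose genotype tag contradicts its title, the interaction was called for 5067 of 17230 genes (29.4%), 943 of them at least 2-fold (5.47%). Of these called genes, 2431 were higher and 2636 lower, against 2391 and 3179 with all libraries. Of the 940 genes, 858 were still called in the same direction, 828 of those at least 2-fold, and 0 were called in the opposite direction. The gap class was the same for 778 of the 828 (94.0%) and the response class for 785 (94.8%). Without replicate 1 of that group, which stood apart, 5317 of 17221 genes were called (30.9%), 908 at least 2-fold (5.27%), and 845 of the 940 were still called in the same direction. The classes hold to this extent with either library left out, and each of these fits leaves 2 libraries in that group.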

How the data were processed

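Polyadenylated RNA of acini was captured on oligo(dT) beads, and both ends of the fragments were sequenced, per the labels' protocols. The submitters' processing notes name cutadapt, RSEM and the build hg38. The sources used here give no aligner, annotation, versions or use of strand, and values of overlapping, antisense and near-identical genes are uncertain for that reason. The authors deposited RSEM expected counts per gene and transcripts per 1000000 (TPM), per the file headers. Not whole were a median of 9.35% of the expected counts in a library.

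Rounded expected counts entered edgeR 4.0.16 (quasi-likelihood F test, robust) in R 4.3.3, with all 18 libraries, 1 mean for each of 6 groups, TMM factors of 0.962 to 1.04 and the default expression filter, which kept 16911 of 42141 genes. Benjamini-Hochberg adjustment ran over all genes of a contrast, with a threshold of 0.05. CPM used the TMM-scaled totals. The common biological coefficient of variation was 4.47%. Altered gene names, 127 in the tables, were restored, and 41959 genes (99.57%) matched GENCODE 29. Names are older symbols where the tables have them. On data simulated for this contrast, with 16709 genes run, 91% of 100 genes changed by 0.585 and 100% of 100 changed by 1 (log2) were recovered. Of the unchanged genes, 9 were called. The changed genes all had a mean above 5 CPM, so recovery at lower levels was not tested. The 940 genes had a median of 4.49 CPM in their highest group.

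Named genes were the 12 largest interactions of each sign, the 3 largest of each gap class and sign, up to 4 called members of each of 36 gene lists with the smallest adjusted p, the 4 largest parallel rises and falls, and a set named throughout (JNK, ERBB2, NGFR, EGFR, JUN, FOS, cadherins, VIM, FN1, MKI67). The first 2 parts asked for 5 CPM in a group and a call without WT replicate 3 with TGF-β1. Some genes taken by this rule are not reported here. The members, lists and tests were chosen with earlier results of these data known. Alternatives included limma 3.58.1 on TPM and DESeq2 1.42.0. Tables and figures used Python 3.11.15, pandas 2.3.3, numpy 2.4.6 and matplotlib 3.10.9.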

Additional observations from a re-analysis of the deposited data

Results flagged for a closer look

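The response to TGF-β1 differed between the genotypes, by edgeR's test of the interaction, for 5570 genes, 940 of them at least 2-fold. Given here are 6 genes taken by the naming rule that had an interaction of at least 2-fold and changed by at least 1.5-fold in opposite directions in the 2 genotypes, each change passing the test. KRT14 (interaction 2.06) and DUSP4 (1.31) fell in WT and rose in JNKKO in all 3 libraries of each group. HRK (-2.80), TINAGL1 (-2.53), ITGB2 (-2.23) and WISP2 (-2.17) rose in WT and fell in JNKKO.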

How the results depend on the processing

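Of the 172 called genes named by the rule, 157 were called wherever they were tested over 21 alternatives, 1 of which, leaving out WT TGF-β1 replicate 3, was part of that rule. Of 3900 values, since some genes were not tested in every alternative, 58 lost and 22 gained a call, and 2 reversed: KCNJ6, at 0 in all WT homodimerizer libraries, was 0.43 and 0.89 in limma on log2(TPM + 1) and log2(TPM + 0.1). ALDH3B2, with 1 count in WT with TGF-β1, was 6.76 without replicate 3 of that group (4.94 with it). DPT was 3.63 and not called without WT homodimerizer replicate 1 (4.89 with it). RSAD2 was 5.26 without WT TGF-β1 replicate 1 (3.98 with it).

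In limma on log2(TPM + 1), which shrinks the differences of low genes, 1958 genes were lower, and 298 higher and 103 lower at least 2-fold. The gap classes then held 62 start only, 239 end only, 38 crossing, 6 narrowing, 44 widening and 12 with neither gap. Responses were 138 WT only, 132 JNKKO only, 96 same and 26 opposite. With a filter on TPM these were 1906, 308 and 113, then 67, 249, 40, 6, 44 and 15, then 145, 137, 97 and 28. On log2(TPM + 0.1) 1872 were lower.

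Without a filter, 68 had neither gap and 32 neither response. With a lower minimum for a gap, 202 crossed and 148 were opposite. With gaps from 2-fold, 13 crossed, 20 narrowed, 60 widened, 259 had neither gap, 16 were opposite and 166 had neither response. With interactions from 1.5-fold, 268 were start only, 905 end only, 62 narrowing, 191 widening, 335 neither gap, 616 WT only, 450 JNKKO only, 504 same and 218 neither response. Leaving out 1 library at a time, between 10 and 22 genes had neither response (13 with all), the highest without JNKKO homodimerizer replicate 2, with 21 and 20 without JNKKO TGF-β1 replicates 2 and 3.

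With the replicate number as a block, 5610 genes were called. No pairing by replicate number was seen, since 1 of 18 pairs had a correlation over 0.1, and 4 of the 12 libraries correlated best with their own number. Such correlations cannot show that same-numbered libraries were grown apart.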

Other observations

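The counts of called members below stand beside 14.1% higher and 18.8% lower over all genes tested. Heat shock genes all differed and were evenly split, with 9 higher and 8 lower of 17 and a median of 0.15. Wnt ligands, receptors and antagonists had 6 higher and 12 lower of 31, Notch genes 2 and 8 of 17, BMP and ID genes 3 and 8 of 19, and ERK feedback genes and ERK-induced factors 4 and 9 of 22. Epithelial transcription and splicing regulators had 4 higher and 7 lower of 13, with median responses of -0.81 in WT and -0.96 in JNKKO. EMT transcription factors and mesenchymal markers had 4 higher and 3 lower of 21, a share of 33.3%, beside 32.9% over all genes. BCL2 family genes had 5 and 5 of 17, and cyclin D, MYC, CDK inhibitor and p53 target genes 5 and 7 of 23, with 0 of them at least 2-fold.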
